A study of Mus musculus with 8 samples.

Results

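Fgfr1 to Fgfr4, Spry1, Spry2, Spry4, Spred1, Spred2 and Fgf2 were examined for H3K56ac (histone H3 acetylated at lysine 56) in freshly isolated muscle stem cells (MuSCs). The peaks came from a merged list of a series with Control and Sirt6-deleted cells, which does not say which genotype gave a peak. Each of these 10 genes had the start of its principal transcript inside an H3K56ac peak, as did 57.6% of protein-coding genes. The 5 feedback inhibitors lay under start-site peaks of 8959 to 14642 bp. These widths were at or above the 97.4th percentile of protein-coding genes, with genes lacking such a peak ranked lowest. The 4 receptors varied more widely. Fgfr1 had the widest start-site peak of the 10 genes (17606 bp), and Fgfr2 the narrowest (807 bp).

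Members were all peaks of the merged MuSC list that overlapped 1 of the 10 genes or the 20 kb on either side by at least 1 bp. Gene positions were those of GENCODE on mm10 (GRCm38), and the 10 genes belong to 21826 protein-coding genes measured in the same way. The list held 105600 peaks, of which 344 fell in these windows by the GENCODE gene bounds. Most of that number came from a single long transcript model of Fgfr2, described further on. With Fgfr2 bounded by its RefSeq record there were 128 peaks, 45 of them at receptors, 68 at inhibitors and 15 at Fgf2.

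The series comprised 8 ChIP-seq libraries from C57BL/6 mice in 4 groups of 2 biological replicates, H3K56ac and input DNA from Control MuSCs and H3K56ac and input DNA from Sirt6mKO MuSCs. The paper describes Control MuSCs as wild type, and elsewhere defines the controls of Sirt6mKO mice as floxed Sirt6 without Cre. In Sirt6mKO mice floxed Sirt6, which encodes a histone deacetylase, was deleted by a constitutive Cre recombinase driven from Pax7. The deletion thus extends through the whole muscle lineage. Ages were not given in the labels, while the paper names male mice, with ages in weeks, for the figure that shows these data. The peak list analysed here pools libraries without saying which ones gave a peak, and it holds no value per library, so no Control against Sirt6mKO difference or replicate error could be given, sequencing depth was not used here, and the loss of Sirt6 itself could not be checked. The paper reports more H3K56ac peaks in Sirt6mKO than in Control MuSCs, and broad peaks after loss of Sirt6. Whether the widths given here stem from the Sirt6mKO libraries was not tested. An acetylated stretch in some of the sorted cells cannot be told apart from one in all of them.

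Fibroblast growth factors bind receptor tyrosine kinases at the cell surface and activate the Ras-ERK cascade through docking and adaptor proteins. Sprouty genes are induced by this cascade, and Sprouty and Spred proteins restrain it, which makes them feedback inhibitors. In muscle, FGF2 drives MuSCs into the cell cycle, and Spry1 is known for holding MuSCs in, and returning them to, quiescence.

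Promoter sequences were available from RefSeq (GRCm38.p6) for 8 of the 10 genes, with no entry for Fgfr1 and Spry4. The 250 bases before the RefSeq start are shown for 3 inhibitors, which had wide start-site peaks, and for Fgfr2, which had the narrowest. The Fgfr2 stretch lies outside that narrow peak. Each is written 5′ to 3′ on the strand of the gene, with capitals marking a GC box (GGGCGG on either strand). The stretches lie at chr3:37639697-37639946 (plus strand, Spry1), chr14:105896820-105897069 (minus strand, Spry2), chr2:117120821-117121070 (plus strand, Spred1) and chr7:130266809-130267058 (minus strand, Fgfr2).
Spry1: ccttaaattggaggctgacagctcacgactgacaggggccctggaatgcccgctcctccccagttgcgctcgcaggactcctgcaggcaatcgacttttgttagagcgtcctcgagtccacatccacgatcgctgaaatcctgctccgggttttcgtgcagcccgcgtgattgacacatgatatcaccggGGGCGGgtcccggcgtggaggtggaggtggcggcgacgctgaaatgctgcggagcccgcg
Spry2: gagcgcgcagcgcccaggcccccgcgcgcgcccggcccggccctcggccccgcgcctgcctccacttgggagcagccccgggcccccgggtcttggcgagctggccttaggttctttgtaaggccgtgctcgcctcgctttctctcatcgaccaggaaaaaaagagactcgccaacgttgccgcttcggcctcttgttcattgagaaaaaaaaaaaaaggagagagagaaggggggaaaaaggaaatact
Spred1: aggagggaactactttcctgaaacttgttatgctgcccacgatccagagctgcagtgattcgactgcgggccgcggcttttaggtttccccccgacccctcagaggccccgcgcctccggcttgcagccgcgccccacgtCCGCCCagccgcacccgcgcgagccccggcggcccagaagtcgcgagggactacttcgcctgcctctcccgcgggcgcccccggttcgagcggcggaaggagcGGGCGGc
Fgfr2: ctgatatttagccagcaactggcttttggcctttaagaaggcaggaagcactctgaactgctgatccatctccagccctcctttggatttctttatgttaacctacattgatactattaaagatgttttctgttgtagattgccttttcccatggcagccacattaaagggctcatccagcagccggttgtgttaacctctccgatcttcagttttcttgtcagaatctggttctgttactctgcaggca

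The promoters of Spry1 and Spry2 each held 23 CpG dinucleotides and that of Spred1 held 31, against a median of 6 (quartiles 2 and 16) over 32851 RefSeq promoters. All 250 bases of each lay inside an H3K56ac peak. The Fgfr2 stretch held 2 CpG dinucleotides and 44.0% G and C, against a median of 52.4%, and none of its bases lay in a peak. Its RefSeq start was 364 bp from the nearest peak, which covered the start of the principal GENCODE transcript instead. Of the other promoters matched, that of Fgf2 held 20 CpG dinucleotides, Fgfr4 15, Spred2 12, and the 2 entries for Fgfr3 held 19 and 24. The count did not follow width throughout, since Spred2 (start-site peak of 8963 bp) held fewer than Fgfr3 (3037 bp). The GC box occurred upstream of Fgfr3, Fgfr4, Spry1, Spred1, Spred2 and Fgf2, and in 32.7% of all promoters. An E-box (CAGCTG) was found at Fgfr3 (13.0% of all promoters) and an ETS motif (CCGGAA) at Fgfr4 (12.0%). No match to AP-1 (TGANTCA, 6.75%), CRE (TGACGTCA, 1.55%) or the TATA box (TATAAA, 12.4%) was found in these windows, each motif being searched on both strands.

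The second sequence of interest is away from a start site. Fgfr2 had only 4 further peaks within its RefSeq window, and all 4 lay side by side in intron 6 of the 17 introns of the principal transcript, 49725 to 53026 bp from its start. They were 657, 543, 702 and 481 bp wide in the direction of transcription. The central 300 bases of the 481 bp peak, at chr7:130213255-130213554 on the minus strand, held 4 CpG dinucleotides and none of the 6 motifs.
Fgfr2 intron peak: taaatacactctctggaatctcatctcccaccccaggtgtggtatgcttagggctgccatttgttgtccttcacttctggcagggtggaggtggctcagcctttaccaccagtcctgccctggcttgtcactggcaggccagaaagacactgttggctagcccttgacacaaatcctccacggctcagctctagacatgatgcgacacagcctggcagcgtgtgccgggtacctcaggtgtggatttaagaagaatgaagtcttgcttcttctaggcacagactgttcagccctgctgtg

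**Figure D1:**
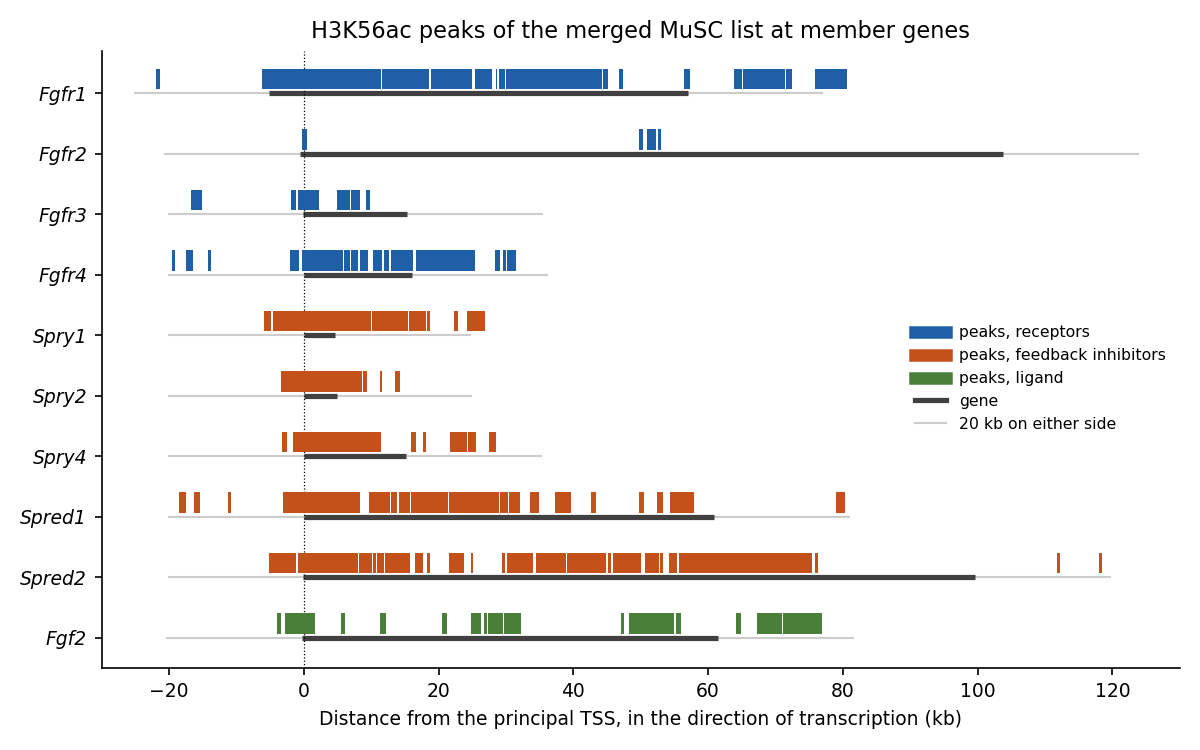
Map of the 128 H3K56ac peaks (coloured blocks) at the 10 genes, by distance from the start of the principal transcript in kb, with transcription to the right; dark bars are genes and thin lines the 20 kb on either side. Peaks run on from the start site in the 5 inhibitors, Fgfr1 and Fgfr4, whereas Fgfr2 shows 1 block at the start and a small series about 50 kb into the gene.

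Fgfr1, the main FGF receptor of the muscle lineage, lies at chr8:25513654-25575718 on the plus strand (ENSMUSG00000031565.18). Its 19 peaks covered 59.1% of the window and 78.7% of the gene body. The start-site peak reached 6202 bp upstream and 11403 bp downstream and included exon 1 of 18. From there the peaks followed each other at short distances, and when peaks less than 1 kb apart were joined, 12 of them made a stretch of 51.3 kb that ended 45.1 kb into the gene. The joined stretch around the start site was wider than that of 99.7% of genes. A further peak of 8505 bp spanned exons 3 to 6, and 4 peaks in the downstream flank overlapped the neighbouring gene Letm2. The window share of Fgfr1 therefore includes peaks that overlap a neighbour, whereas the share of its body does not.

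Fgfr4, the receptor with a known role in muscle differentiation and regeneration, lies at chr13:55152640-55168759 on the plus strand (ENSMUSG00000005320.9). It had 15 peaks, covering 53.1% of the window and 89.4% of the body. The start-site peak was 6145 bp wide, of which 5841 bp lay downstream and included exons 1 to 5. A peak of 3357 bp covered exons 12 to 18, and one of 8884 bp, the widest at this gene, began 16587 bp from the start, beyond the gene end, in a stretch that overlapped no other coding gene. Joined across gaps below 1 kb, 9 peaks made a stretch of 27.6 kb.

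Fgfr3 lies at chr5:33721674-33737068 on the plus strand (ENSMUSG00000054252.18) and encodes a receptor best known from cartilage. Its 6 peaks covered 16.7% of the window and 40.0% of the body. The start-site peak measured 3037 bp with exons 1 and 2, which is below the median of genes with a peak at the start. Peaks of 1931 and 1363 bp followed over exons 3 to 6, and none of its peaks lay past 9846 bp from the start.

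Fgfr2 encodes a receptor with major roles in epithelia and limb formation and lies on chromosome 7 (ENSMUSG00000030849.18). The GENCODE record spans 2960.9 kb because 1 of its 27 transcripts, a model of support level 5, starts 2.86 Mb away. The record overlaps 30 other coding genes. Of 221 peaks in the literal window, 216 lay beyond the RefSeq gene and its flanks. By the RefSeq bounds, chr7:130162451-130266808, Fgfr2 had 5 peaks covering 2.21% of the window and 3.06% of the body. Literal bounds gave 16.0% and 16.1%.

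Spry1 and Spry2 are short genes, and H3K56ac covered them entirely. Spry1 (chr3:37639947-37644598, plus strand, ENSMUSG00000037211.12) lay wholly inside a peak of 14642 bp that reached 4635 bp upstream and 10006 bp downstream. Its 7 peaks covered 55.9% of the window, the highest share among the inhibitors. Joining 5 of the peaks gave a stretch of 24.7 kb that ran on past the end of the gene. Spry2 (chr14:105891947-105896819, minus strand, ENSMUSG00000022114.5) was also wholly covered, by a peak of 8959 bp with both exons. A second peak of 2898 bp lay upstream, separated by only 85 bp, and the 5 peaks covered 30.2% of the window.

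Spry4 (chr18:38586247-38601415, minus strand, ENSMUSG00000024427.7) had a start-site peak of 11775 bp, with 1525 bp upstream and 10249 bp downstream, over exon 1. The peak was followed after 26 bp by one of 1172 bp that reached exon 2. Its 8 peaks covered 35.4% of the window and 75.3% of the body. Thus the 3 Sprouty genes had 5 to 8 peaks each, and most of what was covered belonged to a single wide peak.

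The Spred genes, whose products hold back the Ras-ERK cascade, are long, and showed a different layout. Spred1 (chr2:117121374-117182279, plus strand, ENSMUSG00000027351.14) had 18 peaks over 45.5% of the window and 64.5% of the body. The start-site peak of 11401 bp was separated by 1317 bp from a run of peaks in intron 1, which included peaks of 5402 and 7521 bp. Spred2 (chr11:19924375-20024026, plus strand, ENSMUSG00000045671.17) had 30 peaks, the most of the 10 genes by these bounds, over 48.8% of the window and 62.4% of the body. Its start-site peak of 8963 bp was joined with 10 neighbouring peaks in a stretch of 24.0 kb. Peaks of 6239, 7239 and 6193 bp lay at the end of intron 1 and over exon 2. None of the 5 inhibitor windows overlapped another coding gene.

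Fgf2 (chr3:37348346-37410108, plus strand, ENSMUSG00000037225.13) encodes the ligand. Its 15 peaks covered 31.5% of the window and 30.3% of the body. The start-site peak was 4440 bp wide, with 2827 bp upstream and 1612 bp downstream. It was the only one of the 10 that reached farther upstream than downstream. Such a downstream excess was seen in 65.4% of the 12570 coding genes with the start in a peak. The widest Fgf2 peak, of 6671 bp, lay 48267 to 54937 bp from the start, in the second intron and near another annotated start of the gene. The 2 widest peaks of the downstream flank, of 3739 and 5819 bp, covered the start sites of Nudt6 and Spata5.

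**Figure D2:**
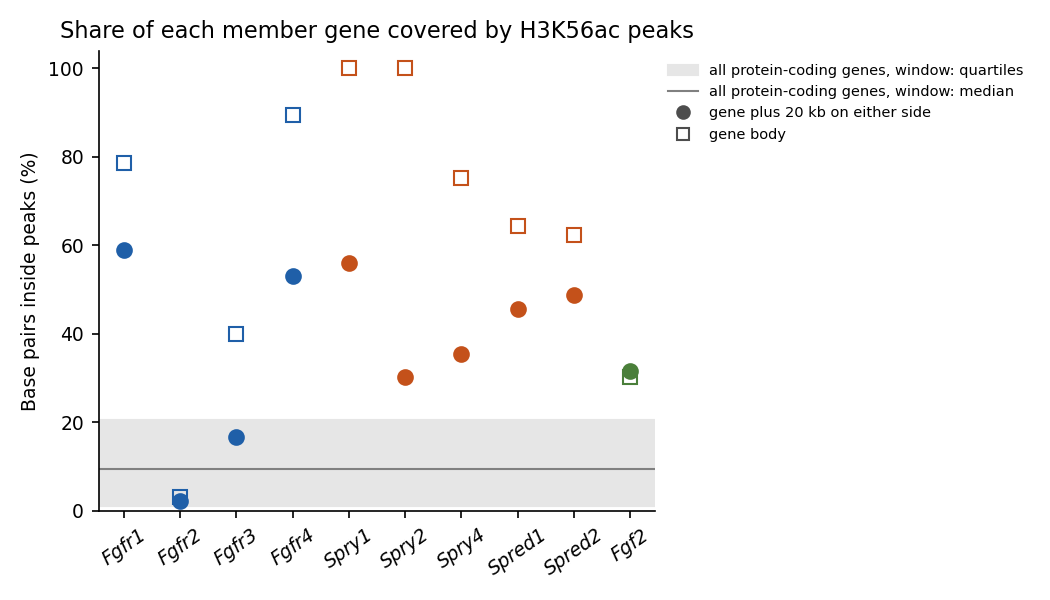
Share of base pairs inside H3K56ac peaks (y axis, %) for each gene, as filled circles for the gene plus 20 kb on either side and open squares for the gene body; Fgfr2 is drawn by its RefSeq bounds. The grey band and line give the quartiles (1.06% and 20.5%) and median (9.49%) of windows over 21826 protein-coding genes, and Fgfr2 and Fgfr3 are the only members that do not lie above the band.

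Receptors and inhibitors were compared first by the share of the window inside peaks. The median was 34.9% over the 4 receptors (16.0% to 59.1%) and 45.5% over the 5 inhibitors (30.2% to 55.9%), against 9.49% over all protein-coding genes. The low end of the receptors is Fgfr2 by its long GENCODE record, and by RefSeq bounds for every gene the receptors ran from 2.21% to 61.5%. The ranges overlap, and the difference of 10.6 percentage points turned to -7.54 when Fgfr2 or Fgfr3 was left out. It rose to 28.8 percentage points without Fgfr1 or Fgfr4. No test was made, since genes are not replicates of a condition. Fgfr1 and Fgfr4 were covered over more of their windows than Fgfr2 and Fgfr3, whereas all 5 inhibitors lay above the upper quartile of coding genes. Counted within RefSeq windows, the density of peaks was 0.346 per 10 kb at Fgfr2, 1.08 at Fgfr3, 1.86 at Fgfr1 and 2.68 at Fgfr4, and it ran from 1.11 at Spry2 to 2.15 at Spred2 among the inhibitors.

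Gene length enters these shares, so each body was also ranked among coding genes of similar length (within 20%). Length and share were by RefSeq bounds for the 10 genes and by GENCODE bounds for the genes they were ranked among. The body share of Fgfr1 exceeded that of 99.3% of 1704 such genes and Fgfr4 that of 99.2% of 2345. The inhibitors stood between 96.7% (Spred2, of 1218 genes) and 98.3% (Spry2, of 1768 genes). Fgfr3 exceeded 89.3% of 2359 genes and Fgf2 87.7% of 1624. Fgfr2 stood at 29.6% of 1171 genes, the only one of the 10 below the middle of its length class.

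The peak at the start site was compared next. All 10 genes had a peak within 3 kb of an annotated TSS, as did 67.8% of protein-coding genes, and all 10 had the principal TSS inside a peak, as did 57.6%. These counts set the members apart little, since most coding genes qualify. A start-site peak of at least 5 kb was present in 13.5% of protein-coding genes. It was present in 5 of 5 inhibitors and in 2 of 4 receptors, Fgfr1 and Fgfr4. The start-site peak had a median of 11401 bp over inhibitors and 4591 bp over receptors, against 3431.5 bp (quartiles 2343 and 4883 bp) over the 12570 coding genes with such a peak. The widths of the receptors spread on both sides of the range of the inhibitors. The order of the medians turned when peaks less than 1 kb apart were joined: the stretch around the start then had a median of 15.8 kb over receptors (0.807 to 51.3 kb) and 14.7 kb over inhibitors (11.4 to 24.7 kb), against 4.34 kb over coding genes.

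**Figure D3:**
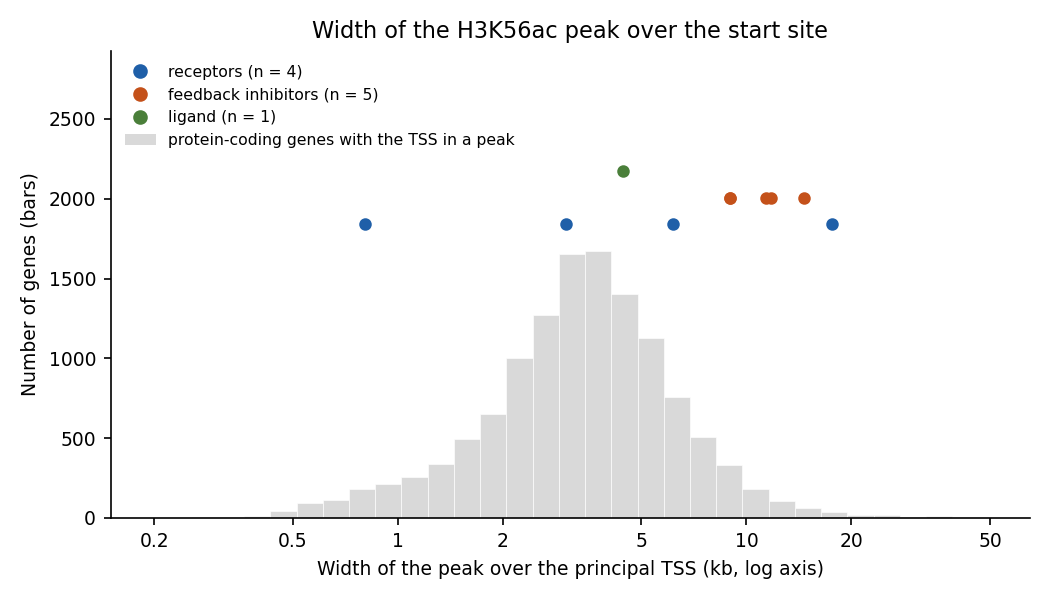
Width of the H3K56ac peak over the principal TSS (x axis, kb, log scale) for the 10 genes (points, by group, height without meaning) above a histogram of the 12570 protein-coding genes with the TSS in a peak (bars, number of genes). The inhibitors sit together between 8959 and 14642 bp, with the points of Spry2 and Spred2 on top of each other, and the receptors spread from 807 to 17606 bp.

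Ranked against coding genes with a start-site peak or none, Fgfr1 exceeded 99.7%, Spry1 99.5%, Spry4 98.9%, Spred1 98.7%, and Spry2 and Spred2 97.4% each. Fgfr4 exceeded 92.1%, Fgf2 82.3%, Fgfr3 65.8% and Fgfr2 44.1%. Genes without a start-site peak rank below every member here. Among the 12570 genes with one, Fgfr3 (3037 bp) was below the median of 3431.5 bp. Fgfr2 (807 bp) was below the lower quartile of 2343 bp. In 9 of the 10 genes more of the width lay downstream of the start than upstream, as in 65.4% of coding genes with a start-site peak. Downstream reach was 8077 to 10249 bp in the inhibitors, a narrow range, against 553 to 11403 bp in the receptors and a median of 1800 bp over coding genes. Upstream reach ran from 345 to 4635 bp in the inhibitors and from 253 to 6202 bp in the receptors, against a median of 1319 bp.

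Read position by position, a peak was present 5 kb downstream of the start in 100% of inhibitors, 75% of receptors and 14.4% of all coding genes. At 7.5 kb the shares were 100%, 75% and 11.9%. At 2.5 kb upstream they were 100%, 25% and 18.9%, Fgfr1 being the receptor concerned. No member had a peak at 10 kb upstream, where 10.3% of coding genes did. With 4 and 5 genes, each gene moves these shares by 25 and 20 percentage points.

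**Figure D4:**
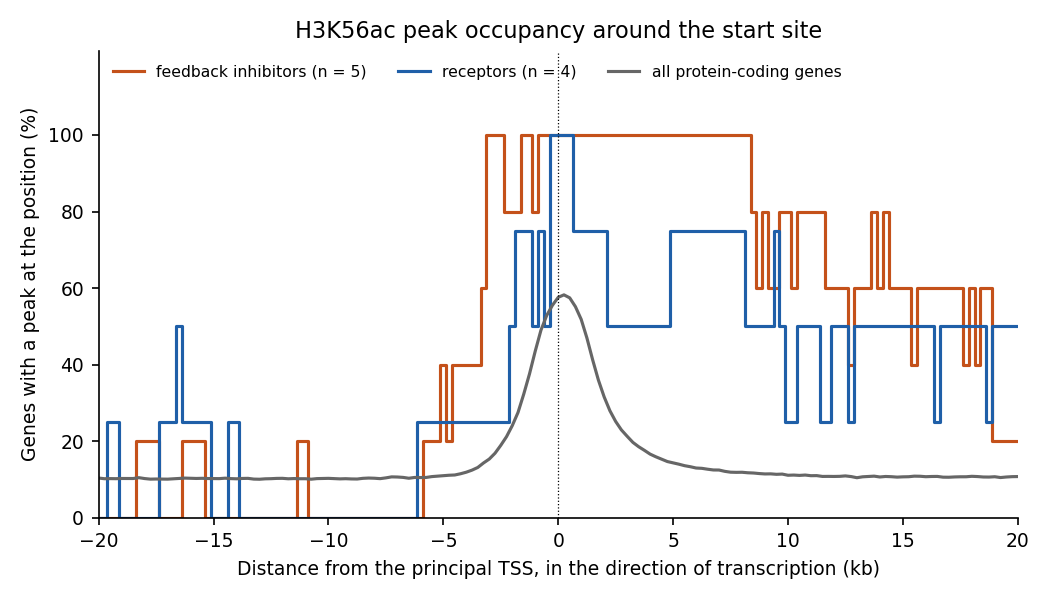
Share of genes with an H3K56ac peak at each position (y axis, %) by distance from the principal TSS in kb (x axis, transcription to the right), for the 5 inhibitors, the 4 receptors and all protein-coding genes. The inhibitor line stays at 100% from the start to 7.5 kb and beyond, while the line of all genes falls from 57.6% at the start to 11.9% at 7.5 kb.

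By place, 32 of the 128 peaks lay within 3 kb of an annotated start, 50 in introns, 9 over exons, 27 in the downstream flank and 10 in the upstream flank. At inhibitors 33 of 68 peaks were intronic, mostly in the long first introns of Spred1 and Spred2, and at receptors 13 of 45. The median width near annotated starts was 4080 bp at inhibitors and 1435 bp at receptors. Intronic peaks had medians of 1134 bp at inhibitors and 792 bp at receptors. Annotated starts numbered 18, 14, 14 and 3 for Fgfr1 to Fgfr4 and 1 to 3 for the inhibitors. Receptor peaks well inside a gene were thus counted near starts, such as those of 660 and 561 bp at Fgfr1. These medians therefore depend on how many starts are annotated. Over all members the median width was 1130 bp, close to the 974 bp of the whole list.

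Composition was read from the central 300 bases of 126 member peaks of at least that width. The median share of G and C was 50.8% at receptors and 46.0% at inhibitors, against 46.3% over 104412 peaks of the list. The ETS motif occurred in 6 of 44 receptor peaks (13.6%) and 3 of 67 inhibitor peaks (4.48%), against 4.84% of all peaks. The E-box occurred in 8 receptor peaks (18.2%) and 5 inhibitor peaks (7.46%), against 17.0%. TATAAA was found in 20 inhibitor peaks (29.9%) and 6 receptor peaks (13.6%), against 16.7%. AP-1 matches were present in 9.09% and 7.46% of them, near the 8.87% of the list. The GC box was present in 9.09% and 7.46%, against 8.23%. Neighbouring peaks of a gene are not independent, and the counts are small.

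The rest of the pathway was read from a list of 62 genes by role, of which 56 had a promoter peak, as did 67.8% of protein-coding genes. Of 21 further ligands, 16 had one, and Fgf3, Fgf4, Fgf6, Fgf10 and Fgf23 had none. The widest belonged to Fgf9 (6916 bp) and the narrowest to Fgf14 (516 bp). Start-site peaks of at least 5 kb occurred in 2 of the 21, against 13.5% of protein-coding genes, so that Fgf2, at 4440 bp, was among the more broadly covered ligands without reaching that width.

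Of 6 coreceptors and receptor partners, 5 had a promoter peak, against 67.8% of protein-coding genes. Flrt2, a membrane protein that binds FGF receptors, had the widest (12696 bp), Kl, the coreceptor of FGF23, the narrowest (1738 bp), and Klb, the coreceptor of FGF21, none. All 9 adaptors had one, from 2811 bp at Ptpn11, which encodes the phosphatase SHP2, to 17834 bp at Plcg1, a phospholipase bound by activated FGF receptors. The latter was slightly wider than the start-site peak of Fgfr1 (17606 bp). All 10 genes of the Ras-ERK cascade had one, the narrowest of 2258 bp at the kinase gene Araf. A start-site peak of at least 5 kb was present in 5 of the 9 adaptors and 2 of the 10 cascade genes. The share over protein-coding genes was 13.5%.

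Further negative regulators had a promoter peak in 8 of 8, against 67.8% of protein-coding genes. Widths ran from 2448 bp at Dusp5 to 10701 bp at Dusp6, a phosphatase that inactivates ERK. A start-site peak of at least 5 kb was present in 4 of these 8, compared with 5 of 5 Sprouty and Spred members. That width was reached in 13.5% of protein-coding genes. Targets of ERK signalling had a start-site peak of at least 5 kb in 7 of 8. Their widths ran from 2392 bp at Etv4, which fell short, to 10198 bp at Fos. The start-site widths of the inhibitors thus overlapped those of the ERK targets, whose widest was below the inhibitor median.

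**Figure D5:**
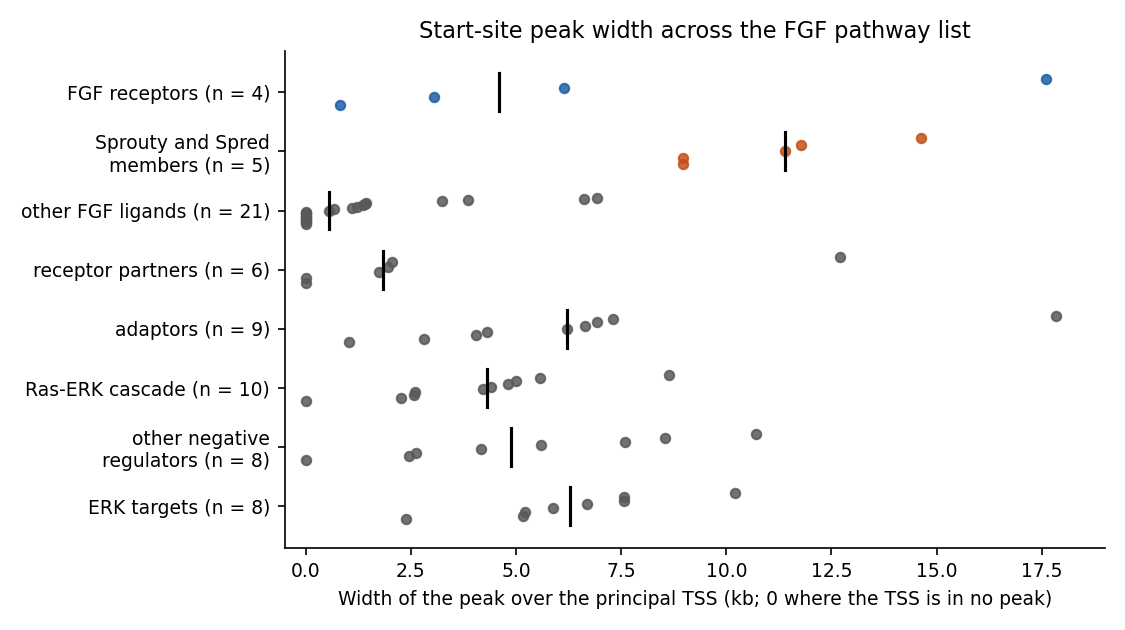
Width of the H3K56ac peak over the principal TSS (x axis, kb, 0 where the TSS is in no peak) for the receptors, the Sprouty and Spred members and each role of the pathway list; each point is a gene and the black bars are medians. Only the Sprouty and Spred members lie wholly at or above 8959 bp, while each other role includes genes below 5 kb.

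The cell identity of the list was checked with markers. By the paper's account, sorted cells analysed again were not fully pure. Peaks from other cells in the sort cannot be told apart here. All 8 MuSC markers had a promoter peak, with a median width of 12834.5 bp (2720 to 30239 bp), and the widths at the inhibitors lay within that range. A promoter peak was also present in 2 of 5 endothelial, 2 of 5 leukocyte, 4 of 5 fibro-adipogenic and 5 of 5 myofibre markers, against 67.8% of protein-coding genes. The widest of these were 25949 bp at Mb, a myofibre gene whose principal start lay in no peak although 77.5% of its window was covered, and 5233 bp at Dcn, a fibro-adipogenic marker whose start-site peak measured 3674 bp; both were named after their values were seen. A start-site peak of at least 5 kb was present in 6 of the 8 MuSC markers and in 0 of the other 20. It was present in 13.5% of protein-coding genes. By the width of the start-site peak, Myod1 (2720 bp) and Cdh15 (599 bp) were the MuSC markers that fell short. The widest promoter peak of Cdh15 was 7972 bp.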

How the data were processed

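H3K56ac ChIP-seq and input libraries of sorted MuSCs (Sca1-/CD45-/CD31-, Integrin-a7+/CD34+ or reporter positive) were sequenced on an Ion Torrent Proton. The authors trimmed reads with Trim Galore, aligned them to mm10 with bowtie while keeping single alignments, removed duplicates with Picard, called peaks with MACS2, removed blacklisted regions and merged overlapping peaks. The submitters' processing notes also name FastQC, SAMtools and deepTools. The deposited list gives chromosome, start and end, and its score column was 0 in every row. There were 0 columns of values per library, so replicate error is unknown, and sequencing depth, which the list does not carry, was not used here. Merging widens and fuses peaks, so widths describe a union of libraries.

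Peaks were joined to GENCODE vM21 genes with a coding transcript on the 21 assembled chromosomes in Python 3.11.15 (NumPy 2.4.6, pandas 2.3.3), with an overlap of at least 1 bp. A window was the gene plus 20 kb on either side, a promoter 3 kb on either side of any annotated TSS, and the start-site peak the peak over the TSS of the principal transcript. Fgfr2 was also bounded by RefSeq. Motifs were searched in RefSeq promoters and in the central 300 bases of peaks. Interval code was tested on simulated data. The members and lists were chosen with earlier results of these data known. All 10 members are named, and of the pathway list the widest and narrowest promoter peak in each role and the genes without one. The widest promoter peak of the cascade genes is not reported here. Spry3 was not matched in the annotation used. Alternatives were other flanks, promoter widths and gene bounds, joined peaks, a width minimum of 500 bp, coding transcripts alone, neighbouring genes left out and each gene left out in turn.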

Additional observations from a re-analysis of the deposited data

How the results depend on the processing

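Of 67 alternative values for 8 results, 51 stayed within 1.5 times the reported value, 14 moved and 2 reversed. The median window share of receptors (34.9%) was 59.4% over gene bodies alone, 16.7% without Fgfr1 or without Fgfr4, and 53.1% without Fgfr2 or without Fgfr3. That of inhibitors (45.5%) was 75.3% over gene bodies alone. The difference of 10.6 percentage points became 6.38 with other coding genes left out, 28.8 without Fgfr1 or Fgfr4, -7.54 without Fgfr2 or Fgfr3 and 5.59 without Spry1 or Spred2. The median widest promoter peak of receptors, which takes 5766 bp at the distant start of the long Fgfr2 model, was 5955.5 bp and became 22328 bp with peaks less than 1 kb apart joined. That of inhibitors went from 11401 to 14697 bp, so joining put the receptors above the inhibitors. The peak count of 344 became 162 with joined peaks and 127 with RefSeq bounds for every gene, an alternative chosen after seeing the data. No paired analysis was possible because values per library are not part of a merged peak list. A gene without a peak in the list cannot be told apart from one below the detection limit of the peak calling.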

Other observations

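Complete coverage of the gene body, seen at Spry1 and Spry2, also occurred in the pathway list at 3 short genes that were picked out after their values were seen. Dusp6, which encodes an ERK phosphatase, and Fos and Ier2, immediate early genes, were each covered at 100%. Egr1 stood at 97.2% and Myc at 94.4%. Among the adaptors, Gab1, which encodes a docking protein, had 56.9% of its window inside peaks and Plcg1 54.1%, close to the 59.1% of Fgfr1 and the 53.1% of Fgfr4.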
